A study of Mus musculus with 4 samples.

Results

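The circadian clock genes of the aorta were described by the open chromatin at their loci. The 10 genes were *Arntl*, *Clock*, *Per1*, *Per2*, *Per3*, *Cry1*, *Cry2*, *Nr1d1*, *Nr1d2* and *Dbp*, of 21938 protein-coding genes in GENCODE vM21. Every ATAC-seq peak in the gene body or within 20 kb of it was counted, which gave 45 of the 21176 peaks of control females, 1 of the 1236 of control males, 0 of the 504 of VEDS females and 65 of the 41444 of VEDS males.

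The mammalian clock is a feedback loop of transcription that runs in almost every cell, vascular smooth muscle included. The dimer of CLOCK and BMAL1 (the product of *Arntl*) binds E-boxes and drives the period genes (*Per1* to *Per3*), the cryptochrome genes (*Cry1* and *Cry2*), the REV-ERB genes (*Nr1d1* and *Nr1d2*) and *Dbp*. PER and CRY proteins inhibit the dimer, the REV-ERB receptors repress *Arntl* through ROR/REV-ERB elements (RRE), and DBP activates genes through D-boxes, while cyclic AMP response elements (CRE) and glucocorticoid response elements (GRE) bring hormonal and nervous signals to the period genes.

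ATAC-seq, in which the transposase Tn5 cuts accessible DNA, was performed at P60, that is at 60 days of age, on nuclei of the aorta. Control mice were *Col3a1*+/+ and VEDS mice were *Col3a1* G938D/+. VEDS mice carry 1 glycine substitution in type III collagen and model vascular Ehlers-Danlos syndrome. For each genotype there was 1 female library and 1 male library, 2 per genotype, and a library held tissue of 2 mice. The nuclei were prepared with a single-cell kit, but the peaks of a library were called on all its nuclei together, so that a smaller number of cells of a type and a lower accessibility per cell cannot be told apart. The hour at which the tissue for ATAC-seq was collected is not given in the sources used here, and the levels of clock transcripts and the binding of clock factors change over the day.

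The lists were of very unequal length, and the median peak rested on 14 reads at its summit for control females, 7 for control males, 6 for VEDS females and 22 for VEDS males. The 2 long lists came from opposite genotypes and opposite sexes, so genotype, sex and depth cannot be told apart. With 2 libraries against 2, the smallest p of a two-sided exact permutation test is 0.333, so genotypes were not compared by a test. Of the marker genes, all 6 of smooth muscle (*Myh11*, *Acta2*, *Tagln*, *Cnn1*, *Smtn* and *Lmod1*) had a promoter peak in both long lists. In the control female and the VEDS male library respectively, the number with a promoter peak was 1 and 4 of 5 endothelial markers, 3 and 2 of 5 fibroblast markers, 0 and 1 of 4 immune markers, 0 and 1 of 4 adipocyte markers and 0 and 1 of 4 striated muscle markers. Among the defining markers, *Cdh5* of endothelium and *Ptprc* of leukocytes had no promoter peak in either long list, and no marker had one in either short list. The part of other cell types in the clock gene peaks was not tested.

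All 10 clock genes had a peak within 3 kb of an annotated transcription start site (TSS) in the control female list, as did 47.4% of protein-coding genes. The VEDS male list also had one for all 10, and for 58.5% of protein-coding genes. In the control male library 1 clock gene, *Arntl*, had such a peak against 1.56% of all genes, and in the VEDS female library 0 of 10 had one against 1.49% of all genes. For lists this short, a count of 0 or 1 of 10 is near the background, and the lack of a peak there was not read as closed chromatin. None of the clock gene peaks was among the 504 highest of either long list, 504 being the length of the shortest list. A peak was ranked by its q-value within its own list, and its place is given as the percent of the list at or above its rank, so that a small percent is a high rank. The median of the best promoter peaks of the clock genes was at 19.5% of the list of control females and at 9.51% of that of VEDS males. Over all genes with a promoter peak, these medians were 28.1% and 18.6%.

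**Figure D1:**
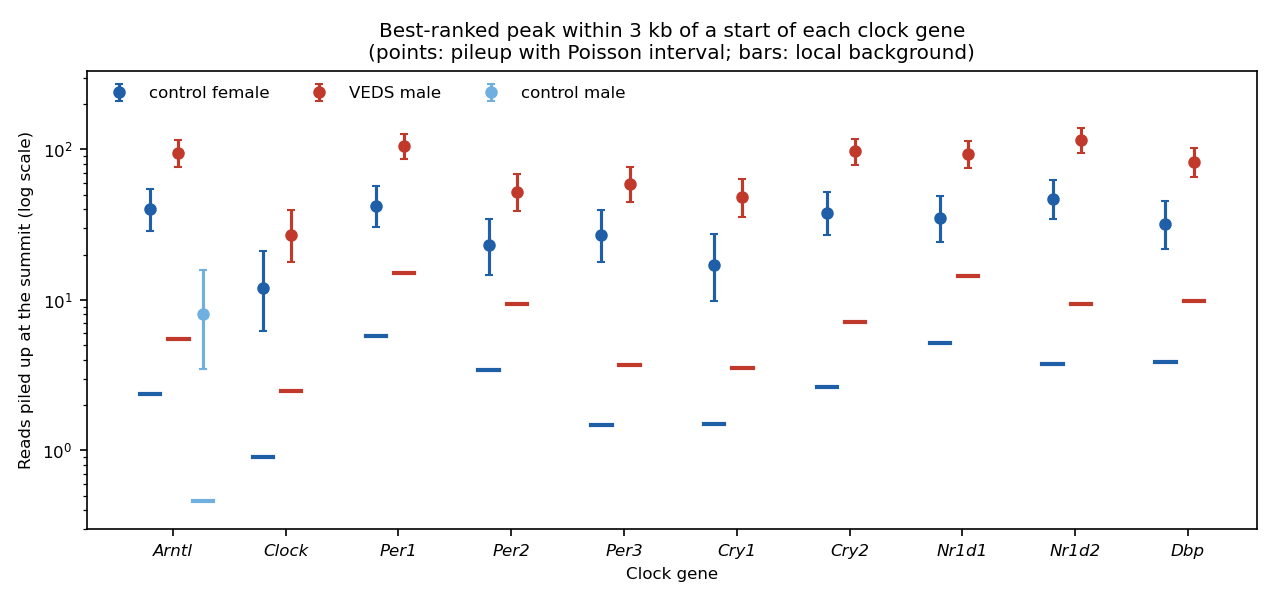
Reads at the summit (log axis) of the best-ranked peak within 3 kb of a TSS for each clock gene. Points are single libraries with 95% Poisson intervals, which cover counting error only, and short bars are the local background of the same library. The points of *Clock* (12 and 27 reads) are the lowest of the 10 genes in both long lists and those of *Nr1d2* (47 and 115) the highest, and *Arntl* alone has a point for the control male library (8 reads).

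*Arntl* encodes BMAL1, the partner of CLOCK. Its promoter peak rested on 40 reads (95% Poisson interval 28.6 to 54.5) over a local background of 2.38 in the control female library, and stood at 3.99% of the list. In the VEDS male library it rested on 94 reads (76.0 to 115) over 5.47 and stood at 1.78%. The control male peak rested on 8 reads (3.45 to 15.8) over 0.459 and stood at 37.8%, rank 467 of 1236. *Arntl* was thus the only clock gene with a peak in 3 of the 4 libraries, and the 3 summits lay between -257 and -154 relative to the gene start (chr7:113207465, plus strand). The peaks of the long lists reached past the gene start and covered an RRE at +78, in a stretch annotated as 5′ untranslated, whereas the control male peak ended before it. The RRE, in capitals, at chr7:113207529-113207557 (GRCm38, plus strand) is shown because it is the element through which REV-ERB receptors are known to act on this gene.
Arntl first exon: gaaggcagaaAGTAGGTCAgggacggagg
Inside the gene, peaks in the first intron (+8951) and the third intron (+53159, at 41.5% of the control female and 24.5% of the VEDS male list) were called in both long lists. The third-intron peak held an AP-1 site 42 bp from the control female summit. Of the 15 E-boxes (CACGTG) of the *Arntl* window, none lay in a peak of any library. The first-intron peak held an E-box variant, CACGTT, at +9031 in both long lists.

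*Clock* encodes the other partner in the activating dimer and had the lowest promoter peaks of the 10 genes. In the control female library the peak at the gene start (chr5:76304792, minus strand) rested on 12 reads (6.20 to 21.0) and stood at 56.7%. In the VEDS male library the same peak rested on 18 reads and stood at 65.3%, below a second peak at +761 that rested on 27 reads (17.8 to 39.3) and stood at 36.7%. This second peak, in the first intron, held an RRE 6 bp from its summit. The only other peak, in intron 22 of the VEDS male library, lay wholly in bases masked as repeats and rested on 11 reads. None of the 13 E-boxes of the *Clock* window was in a peak, but the VEDS male peak at +761 held the variant CACGTT at +795.

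*Per1*, a rapidly induced period gene, had its strongest peak at the gene start (chr11:69095217, plus strand), with 42 reads (30.3 to 56.8, at 16.1%) in the control female and 105 reads (85.9 to 127, at 7.95%) in the VEDS male library. This peak held E-boxes at -331 and -147, with starts 184 bp apart. Further peaks in both long lists lay at +1948, +3640 and +4855. The peak at +3640 lay 24 bp from another annotated start of *Per1* in the control female library and held another E-box, at +3569. The peak at +1948 held a full CRE at +1989, and the wider VEDS male peak also covered a GRE at +1866. Of the 14 E-boxes of the window, 3 lay in peaks of both long lists. The E-box pair (chr11:69094863-69095092) and the GRE with the CRE (chr11:69097057-69097229), both on the plus strand of GRCm38 with the sites in capitals, are shown because they hold the elements for the clock in 1 peak of *Per1* and those for glucocorticoids and for cyclic AMP in another.
Per1 promoter: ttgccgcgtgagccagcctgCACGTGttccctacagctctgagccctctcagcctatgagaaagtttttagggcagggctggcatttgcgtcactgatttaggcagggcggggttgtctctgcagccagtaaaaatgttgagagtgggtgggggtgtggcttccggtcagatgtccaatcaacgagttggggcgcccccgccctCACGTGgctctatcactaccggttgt
Per1 downstream of the first promoter: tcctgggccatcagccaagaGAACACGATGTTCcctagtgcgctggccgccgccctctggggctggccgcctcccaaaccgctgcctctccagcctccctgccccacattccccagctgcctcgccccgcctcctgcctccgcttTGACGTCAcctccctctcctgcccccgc
The peaks at +1948 and +3640 stood at 70.6% and 79.0% in the control female list and at 19.7% and 51.2% in that of VEDS males. They rested on 25 and 23 reads over local backgrounds of 6.13 and 6 in the first, and on 85 and 56 reads over 17.0 and 16.9 in the second.

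*Per2* had the most peaks of the period genes, 8 in control females and 12 in VEDS males, and its promoter peak was not the highest of them. The promoter peak (gene start chr1:91459324, minus strand) rested on 23 reads (14.6 to 34.5, at 46.8%) and on 52 reads (38.8 to 68.2, at 31.8%). In the ninth intron, the peak at +22841 rested on 29 and 57 reads and stood at 11.5% and 11.7%, and in the fourth intron the peak at +12962 stood at 20.9% and 9.90%. The intronic peaks thus ranked above the promoter in both lists. The ninth-intron peak held a pair of overlapping GREs centred at +22834 and +22843, 6 and 2 bp from the control female summit. None of the 8 strict E-boxes of the window lay in a peak, but the promoter peak held the variant CACGTT at +7 and a D-box at -122. The stretch with both (chr1:91459295-91459469, GRCm38, minus strand, sites in capitals) is shown because it is the only *Per* promoter peak with a D-box and an E-box variant.
Per2 promoter: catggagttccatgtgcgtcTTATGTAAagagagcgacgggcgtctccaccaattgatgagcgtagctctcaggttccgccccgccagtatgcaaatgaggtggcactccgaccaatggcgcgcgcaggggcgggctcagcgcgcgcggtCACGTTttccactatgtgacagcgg
The downstream peaks near the starts of *Hes6* (at 22.0% and 6.65%) and *Ilkap* (at 40% and 17.1%) fall within 20 kb of *Per2* but overlap the promoters of those neighbours.

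*Per3*, the period gene with the weakest known role in the loop, had 2 peaks in control females and 3 in VEDS males. Its promoter peak (gene start chr4:151044665, minus strand) rested on 27 reads (17.8 to 39.3, at 12.0%) and on 59 reads (44.9 to 76.1, at 8.96%). It held a pair of D-boxes at -202 and -155, both with the letters TTATGTAA in the sense of the gene and with starts 47 bp apart. None of its 18 E-boxes lay in a peak, the largest number of E-boxes in any of the 10 windows. The D-box pair (chr4:151044796-151044890, GRCm38, minus strand, D-boxes in capitals) is shown because *Per3* was the only clock gene with more than 1 D-box in a peak.
Per3 promoter: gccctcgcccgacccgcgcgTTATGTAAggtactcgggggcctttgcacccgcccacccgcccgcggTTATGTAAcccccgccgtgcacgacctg
A CRE at -13303 lay in a peak that covered the start of the neighbour *Vamp3*.

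*Cry1* and *Cry2* encode the cryptochromes, the stronger inhibitors of the CLOCK and BMAL1 dimer. The *Cry1* promoter peak (gene start chr10:85185064, minus strand) rested on 17 reads (9.90 to 27.2, at 42.6%) and on 48 reads (35.4 to 63.6, at 15.4%). The control female peak ended 213 bp short of the nearest TSS, and only the wider VEDS male peak reached the E-box at -48 and the variant CACGTT at -67. The first-intron peak of *Cry1* at +23140 rested on 10 reads in the control female library (at 55.4%) and 18 in the VEDS male (at 46.2%). It held RREs at +23095 and +23148, of which the control female peak covered the second, 8 bp from its summit. Of the 67 RREs in the windows of the 10 genes, 4 lay in control female peaks and 6 in VEDS male peaks, and 2 of those 6 were this pair. It is shown because intronic RREs of *Cry1* are known targets of ROR and REV-ERB receptors (chr10:85161891-85161992, GRCm38, minus strand, RREs in capitals).
Cry1 first intron: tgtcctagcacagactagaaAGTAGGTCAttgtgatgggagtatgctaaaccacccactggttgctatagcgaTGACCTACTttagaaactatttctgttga
The *Cry2* promoter peak (gene start chr2:92434043, minus strand) was among the highest, with 38 reads (26.9 to 52.2, at 6.47%) and 97 reads (78.7 to 118, at 2.76%), and its summit was at -67 in both lists. A further 4 regions of *Cry2* had peaks in both, 3 of them in the gene, at +5918 in the first intron, +9041 in the second and +10143 in the third, and 1 downstream at +44502. The second-intron peak held an AP-1 site and stood at 26.5% and 5.66%. The third-intron peak, with 21 reads at 59.2% and 65 reads at 23.1%, held the E-boxes of *Cry2* that were in peaks, 2 of 12, with starts 53 bp apart and 23 and 30 bp from the control female summit. They are shown (chr2:92423847-92423945, GRCm38, minus strand, E-boxes in capitals) because no strict E-box lay in the *Cry2* promoter peak. That promoter peak held the variant CACGTT at -190 in both long lists.
Cry2 intronic E-box pair: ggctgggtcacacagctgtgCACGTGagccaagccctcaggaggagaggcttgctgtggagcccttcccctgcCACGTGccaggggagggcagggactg

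**Figure D2:**
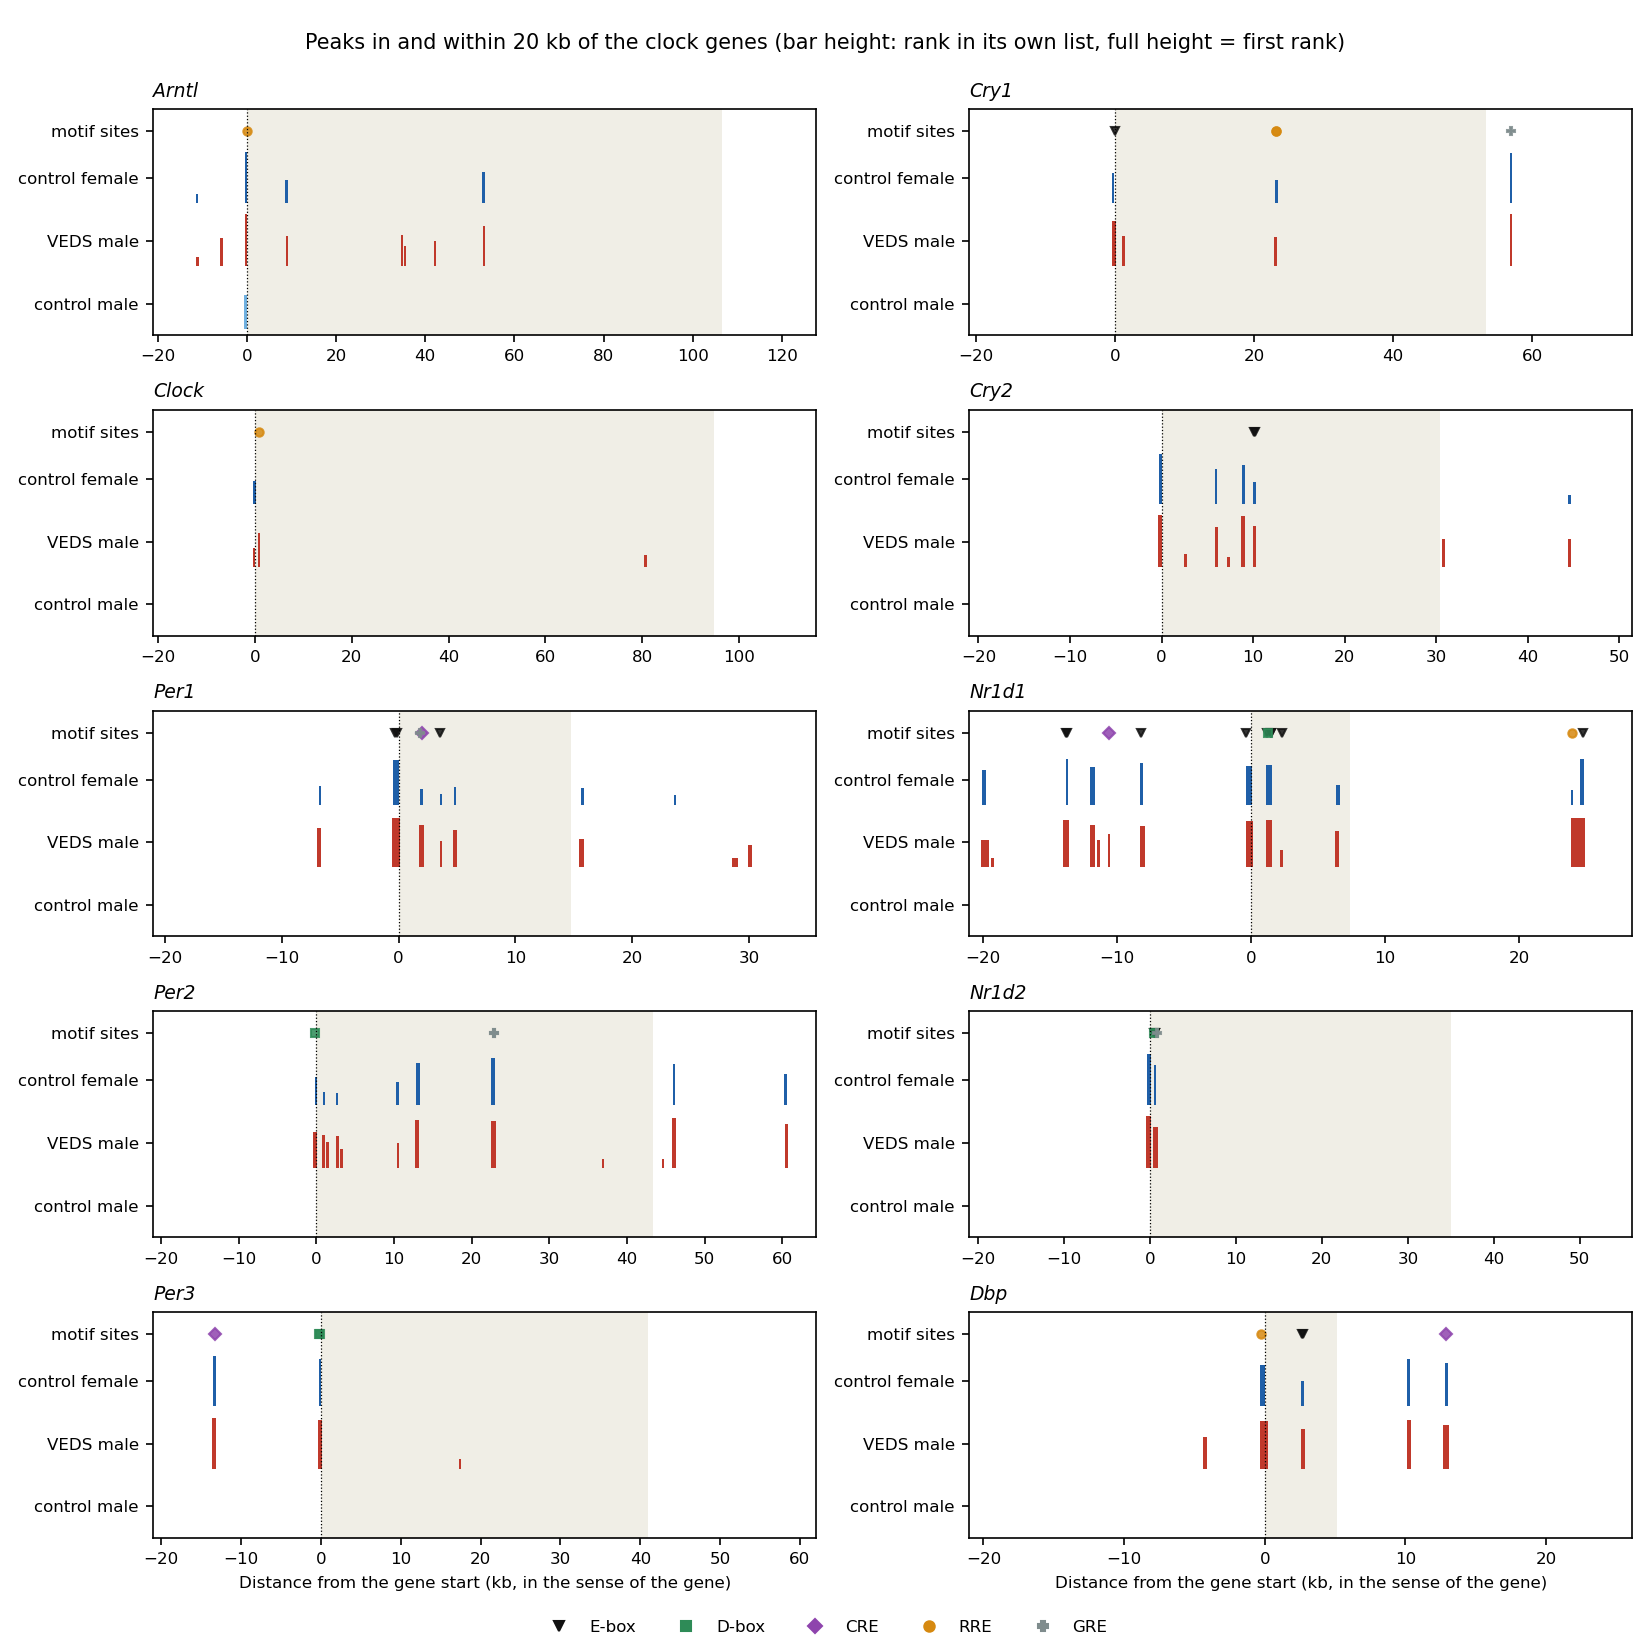
Peaks and motif sites along the 10 clock genes, by distance from the gene start in kb in the sense of the gene, with the gene body shaded. Bars are peaks of 3 libraries (the VEDS female list had 0 here) and their height is the rank in their own list, full height being the first rank. Peaks are drawn at their width or at a minimum of 0.4% of the axis. The 9 and 12 peaks of *Nr1d1* spread over its short body and both flanks, whereas those of *Nr1d2* are 2 at its start in each long list.

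*Nr1d1* and *Nr1d2* encode REV-ERBα and REV-ERBβ, the repressors of *Arntl*. *Nr1d1* (gene start chr11:98775333, minus strand) had 9 peaks in control females and 12 in VEDS males, and 7 and 9 of the 15 E-boxes of its window lay in them, the most of the 10 genes. The peak at the gene start, with 34 reads at 26.8% and 89 reads at 12.5%, held the variant CACGTT at -70. Its wider VEDS male form also covered an E-box at -365. The best-ranked peak within 3 kb was in the first intron, with 35 reads (24.4 to 48.7, at 25.6%) and 93 reads (75.1 to 114, at 11.8%). Its summits in the long lists, +1285 and +1286, were 1 bp apart, and it held 3 E-boxes, at +1176, +1456 and +1471, and a D-box at +1249. The last pair of E-boxes had starts 15 bp apart. Upstream, peaks at -8148 (22.6% and 22.0%) and -13757 (15% and 10.4%) held an E-box and a pair of E-boxes. The pair at -13755 and -13807 lay 2 and 50 bp from the control female summit, in a peak nearer to the start of *Msl1* (6359 bp) than to that of *Nr1d1*. A further E-box at +24740 lay in a peak 2747 bp from the start of *Thra*, the thyroid hormone receptor gene that overlaps the 3′ end of *Nr1d1*. The 3 stretches (GRCm38, minus strand, E-boxes and the D-box in capitals) are shown because they hold 5 of the 7 control female E-boxes at this gene, and lie at chr11:98774060-98774179, chr11:98773839-98773899 and chr11:98789065-98789162.
Nr1d1 first intron, D-box and E-box: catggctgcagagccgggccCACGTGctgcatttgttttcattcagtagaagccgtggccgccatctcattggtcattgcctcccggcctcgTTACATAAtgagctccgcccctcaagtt
Nr1d1 first intron, E-box pair: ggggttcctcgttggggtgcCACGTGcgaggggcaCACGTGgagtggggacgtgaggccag
Nr1d1 upstream, E-box pair: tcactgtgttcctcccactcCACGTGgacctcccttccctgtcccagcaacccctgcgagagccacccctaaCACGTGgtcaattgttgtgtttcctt

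*Nr1d2* (gene start chr14:18239127, minus strand) had 2 peaks in each long list, and its promoter peak was the best ranked of the 10 genes in both, with 47 reads (34.5 to 62.5, at 3.97%) and 115 reads (at 1.64%). No E-box lay in this peak at the gene start. All 3 E-boxes in peaks, of 7 in the window, lay in the neighbouring first-intron peak, at +451, +554 and +599, together with a D-box at +520. That peak rested on 31 reads at 24.3% and 61 reads at 22.7%. The stretch chr14:18238505-18238698 (GRCm38, minus strand, E-boxes and the D-box in capitals) is shown beside that of *Nr1d1* because both genes carry an E-box followed by a D-box in a first-intron peak.
Nr1d2 first intron: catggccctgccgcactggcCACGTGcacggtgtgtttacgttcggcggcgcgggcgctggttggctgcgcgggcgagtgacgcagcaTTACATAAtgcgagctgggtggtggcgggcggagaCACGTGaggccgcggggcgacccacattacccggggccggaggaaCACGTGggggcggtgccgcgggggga
The starts of the E-box and the D-box were 72 bp apart in *Nr1d1* and 68 bp apart in *Nr1d2*, and both D-boxes read TTACATAA in the sense of the gene, the reverse complement of TTATGTAA. In a local alignment of both stretches, chosen after their motifs were seen, 65 of 113 columns were identical (57.5%), and E-box aligned with E-box and D-box with D-box. No other stretches were aligned for comparison, so the identity describes this pair only. Peaks with an E-box and a D-box numbered 2 of 45 at the clock genes of control females and 2 of 65 in VEDS males, and both were these first-intron peaks. Among all peaks, 0.0568% and 0.0991% held both motifs. This count was also chosen after the motifs were seen, so it is a description of these peaks only.

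*Dbp*, an output gene of the loop, encodes the D-box activator. Its promoter peak (gene start chr7:45705088, plus strand) rested on 32 reads (21.9 to 45.2, at 23.0%) and on 82 reads (65.2 to 102, at 10.1%) and held an RRE at -231, 18 and 8 bp from the summits. A second peak, in the second intron and next to another annotated start of *Dbp*, rested on 22 reads at 52.2% and 58 reads at 24.4%. It held both E-boxes of *Dbp* that were in peaks, of 12, at +2627 and +2740, and between them the variant, read in this sense as AACGTG, at +2689. This is the arrangement of *Nr1d2*, *Cry2* and the first-intron peak of *Nr1d1*, where the strict E-boxes lay in intronic peaks of both long lists. By the 3 kb rule, these peaks of *Dbp*, *Nr1d2* and *Nr1d1* were also promoter peaks, and that of *Cry2* was not. The *Dbp* stretch (chr7:45707692-45707850, GRCm38, plus strand, sites in capitals) is shown because it holds 3 E-box-like sites within 1 peak.
Dbp second intron: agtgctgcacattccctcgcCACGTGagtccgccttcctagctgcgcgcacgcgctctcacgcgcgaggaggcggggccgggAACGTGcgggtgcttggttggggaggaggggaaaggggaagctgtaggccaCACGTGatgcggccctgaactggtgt
Peaks at +10243 and +12974 covered starts of *Sphk2*, and the latter held a CRE at +12908.

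Across the 10 genes, E-boxes lay in control female peaks at 5 genes (*Per1*, *Cry2*, *Nr1d1*, *Nr1d2* and *Dbp*) and in VEDS male peaks at the same 5 and at *Cry1*. They lay in no peak at *Arntl*, *Clock*, *Per2* and *Per3*. D-boxes lay in peaks of *Per2*, *Per3*, *Nr1d1* and *Nr1d2* in both long lists, so that no clock gene other than *Nr1d1* and *Nr1d2* had both motifs in its peaks.

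**Figure D3:**
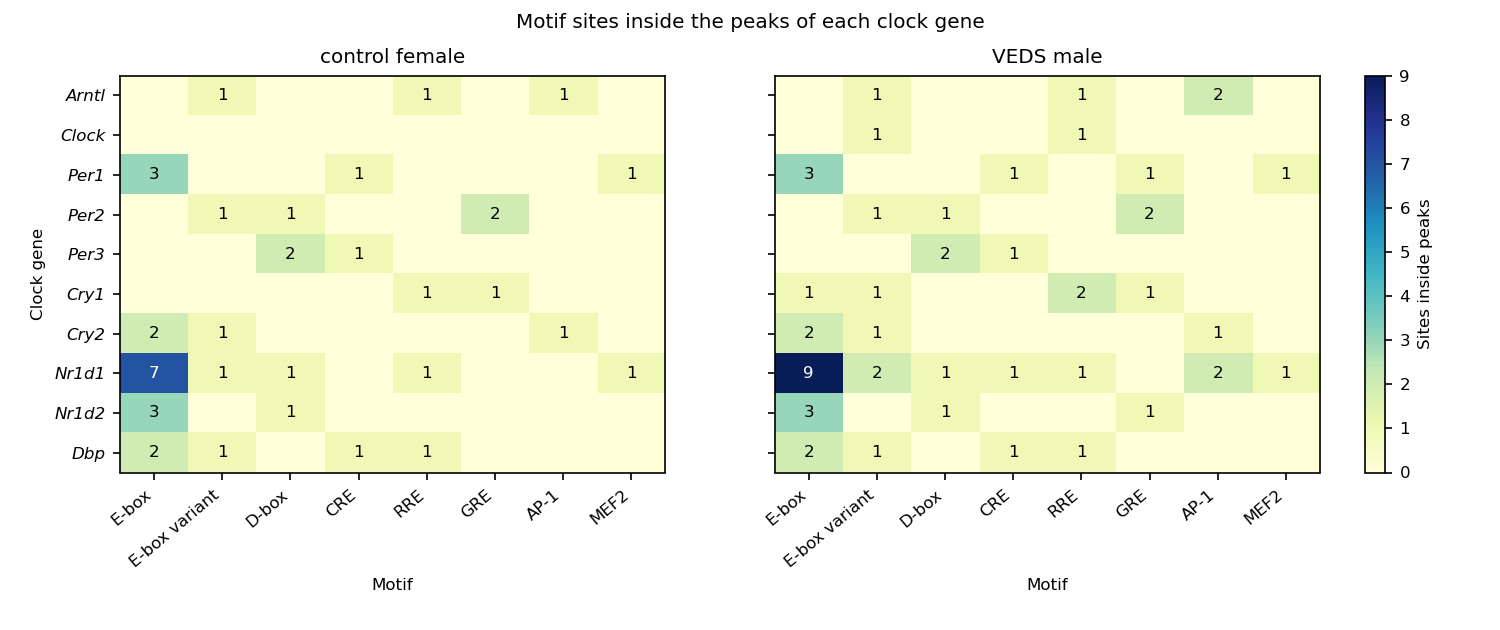
Number of motif sites inside the peaks of each clock gene (rows) for each motif (columns) in the 2 long lists, with blank cells for 0. The cells of *Nr1d1* for the E-box, 7 and 9, are the darkest, and the E-box cells of *Arntl*, *Clock*, *Per2* and *Per3* are blank in both panels.

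The E-box was held by 9 of 45 clock gene peaks of control females (20%, against 8.40% of all peaks) and by 12 of 65 in the VEDS male (18.5% against 8.12%). The D-box (TTATGTAA or TTACGTAA) was held by 4 peaks in each, that is 8.89% against 0.828% of all peaks and 6.15% against 0.982%. The CRE (TGACGTCA) was held by 3 peaks (6.67% against 2.74%) and by 4 (6.15% against 2.04%). All 3 motifs were thus more frequent in clock gene peaks than in the list as a whole, from counts of 3 to 12 peaks. *Nr1d1* alone held 7 of the 17 E-boxes in control female peaks and 9 of the 20 in VEDS male peaks. Some of its peaks with an E-box lay nearer to the start of *Thra* or *Msl1*. The shares without *Nr1d1* were not computed. Of the CREs, only that of *Per1* lay in a peak whose nearest start was that of the clock gene. Peaks of clock genes had a median width of 251 bp against 249 bp over all peaks in the control female library and 362 bp against 287 bp in the VEDS male. In windows of 300 bp at the summit, the E-box share was 20% against 8.16% and 15.4% against 6.96%, and the D-box share 8.89% against 0.871% and 4.62% against 0.907%. Over whole peaks, the variant CACGTT was held by 5 control female peaks (11.1% against 5.11%) and by 7 VEDS male peaks (10.8% against 5.83%).

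The RRE (ANTAGGTCA or ANTGGGTCA) was held by 4 control female peaks (8.89% against 1.51% of all peaks) and by 5 VEDS male peaks (7.69% against 2.01%), at *Arntl*, *Cry1*, *Nr1d1* and *Dbp*, and in the VEDS male also at *Clock*. The palindromic GRE was held by 2 (4.44% against 1.30%) and 4 (6.15% against 1.20%). AP-1 sites (TGACTCA or TGAGTCA) were held by 2 (4.44% against 11.3%) and 5 (7.69% against 12.4%), and MEF2 sites by 2 (4.44% against 5.33%) and 2 (3.08% against 5.90%). For AP-1 and MEF2, factors known for their part in smooth muscle, the shares at clock genes were thus at or below those of the whole lists, from counts of 2 to 5 peaks and with no test. Promoter peaks were 20 of the 45 clock gene peaks of control females and 26 of the 65 of VEDS males. The motif shares were not matched for this or for GC content. All words were searched on both strands, and a match is not a bound site.

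**Figure D4:**
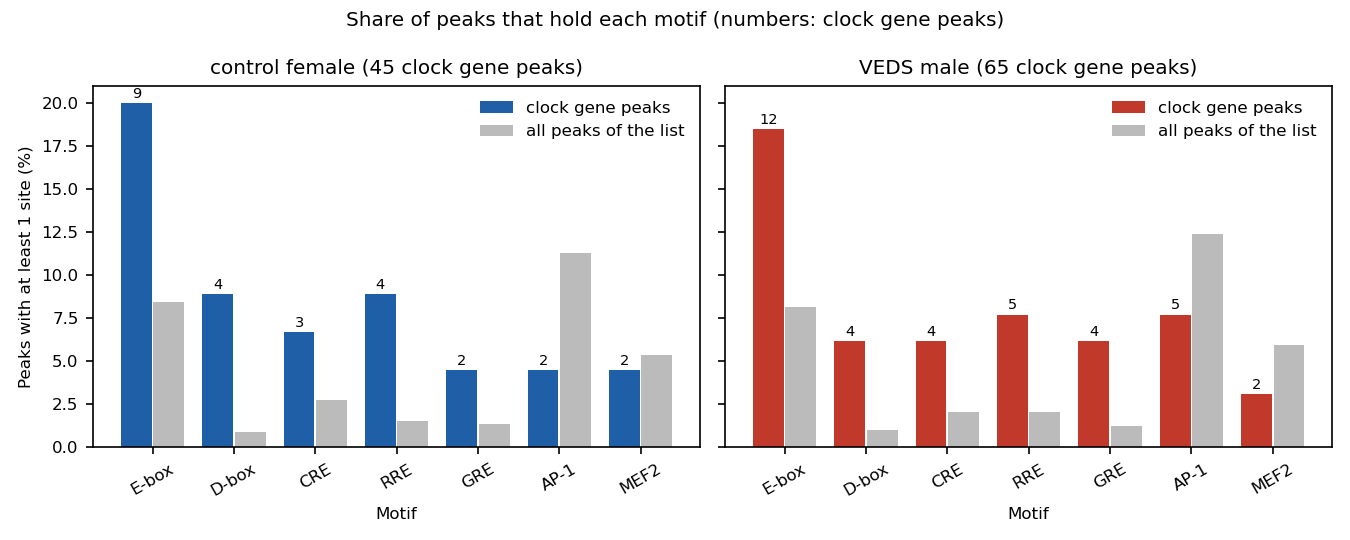
Percent of peaks with at least 1 site of each motif, in clock gene peaks (coloured bars, with the number of peaks above) and in all peaks of the same list (grey bars), for the 2 long lists. E-box, D-box, CRE, RRE and GRE bars are higher for clock gene peaks in both panels, and AP-1 and MEF2 bars are lower.

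Peaks with 2 or more E-boxes numbered 6 of 45 in the control female library, where 0.876% of all peaks had as many, and 6 of 65 in the VEDS male, where 0.810% had. They lay at *Per1*, *Cry2*, *Nr1d1*, *Nr1d2* and *Dbp* in both lists, and this count was chosen after the motifs were seen. Seen from the sequence, the windows of the 10 genes held 123 E-boxes, of which 17 (13.8%) lay in control female peaks that covered 1.51% of the bases, and 20 (16.3%) in VEDS male peaks that covered 2.82%. Of these 17 and 20 sites, 7 and 9 were at *Nr1d1*. The ratio of the share of sites to the share of bases was 9.16 and 5.77, against 2.98 and 2.45 over the windows of all protein-coding genes. For the D-box this ratio was 5.43 and 2.91 from 5 of 61 sites in each list, against 0.535 and 0.511 over all genes. For the CRE it was 19.9 and 14.2, from 3 and 4 of 10 sites, near the 16.5 and 10.3 of all genes. The E-box and D-box ratios were thus more than 1.5 times those of all genes in both lists, and the CRE ratios less.

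**Figure D5:**
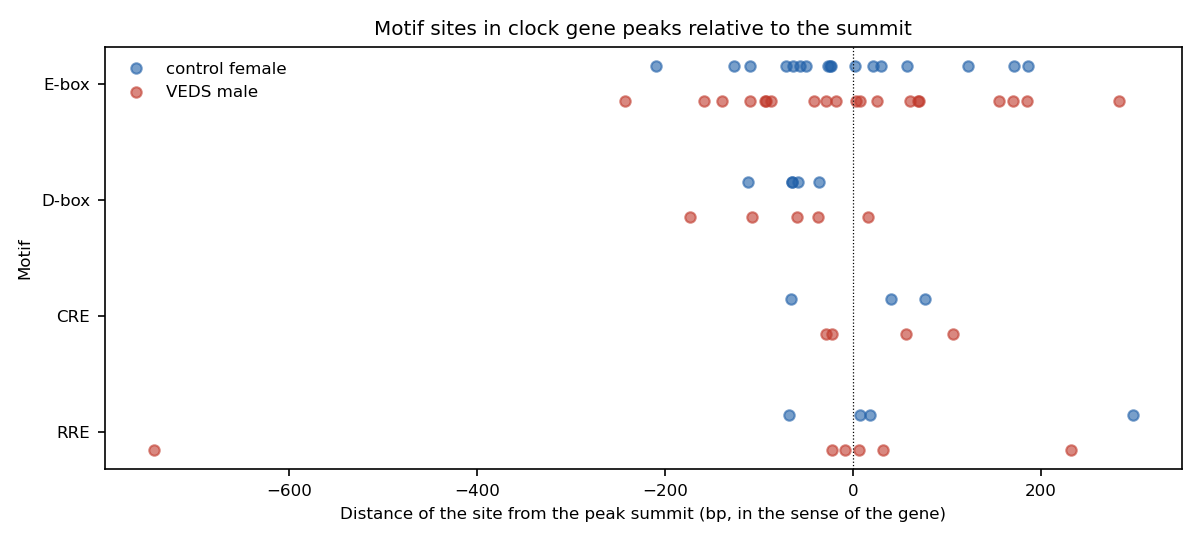
Distance in bp, in the sense of the gene, from the peak summit to each E-box, D-box, CRE and RRE inside a clock gene peak, with 1 point per site and library. Of the E-boxes, 11 of 17 in the control female and 12 of 20 in the VEDS male library lie within 100 bp of the summit, with medians of 57 and 90 bp. These values were not computed over all peaks. The median width of clock gene peaks, 251 and 362 bp, limits the distance of a site inside a peak.

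RefSeq promoter sequences of 300 bp, from 250 before to 50 after a start, were matched for 9 of the 10 genes in 13 windows (*Per2* was not matched). E-boxes were in windows of *Cry1* and *Per1* (7.15% of all 32851 windows held 1), D-boxes in that of *Per3* (1.06%) and RREs in that of *Arntl* (1.45%), and no window held a CRE (1.79%). *Cry1*, *Cry2* and *Nr1d1* held the variant CACGTT (4.68%). Of the 5 genes with E-boxes in control female peaks, *Per1* alone had an E-box in this promoter window.

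The clock gene peaks of the long lists were largely the same regions. Of the 45 control female peaks, 44 (97.8%) overlapped a VEDS male peak, where 95.0% of all control female peaks did. Of the 65 VEDS male peaks, 43 (66.2%) overlapped a control female peak, where 47.6% of all VEDS male peaks did. Above the middle rank of the VEDS male list, 39 of 47 clock gene peaks overlapped against 78.5% of all peaks, and below it 4 of 18 against 16.7%, so that on either side the shares were near those of the list. Merging gave 66 regions, of which 43 were in both lists. The summits lay a median of 31 bp apart, near the 36 bp over all overlapping peaks of these lists. Of the 43, 39 lay within 100 bp, a share not computed over all peaks. The largest gap was 181 bp, in the *Per1* promoter peak with 2 E-boxes.

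The 22 regions found only in the VEDS male library stood between 36.7% and 96.9% of its list, with a median of 59.6% and 8 to 54 reads at the summit. The 43 VEDS male peaks with an overlap had a median of 20.7%. *Arntl*, *Per2* and *Nr1d1* had 4 such regions each, *Cry2* had 3, *Clock* and *Per1* had 2 each, *Per3*, *Cry1* and *Dbp* had 1 each and *Nr1d2* had 0. The 1 region found only in the control female library lay 23640 bp downstream of the *Per1* start, near *Hes7*, at 98.7% of the list with 10 reads. Of the 18 regions with an E-box, D-box or CRE, 16 were in both lists, as were 43 of all 66 regions. The share over all peaks with these motifs was not computed. The other 2 were the E-box of *Nr1d1* at +2292 and the CRE at -10614, in VEDS male peaks at 66.8% and 37.5% of the list. These differences were not tested between genotypes.

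The clock genes had a median of 4 peaks per gene in the control female library against 1 over all protein-coding genes, and 6.5 against 2 in the VEDS male. The range was from 1 (*Clock*) to 9 (*Nr1d1*) in the first and from 2 (*Nr1d2*) to 12 (*Per2* and *Nr1d1*) in the second. Over all protein-coding genes, the 75th percentile was 2 and 4 peaks. All 10 clock genes had a promoter peak in these lists, against 47.4% and 58.5% of protein-coding genes, and the counts were not matched for this. The local background at clock gene peaks was also higher, with a median of 2.63 reads against 1.03 over all peaks, and 6.26 against 2.29. The median fold enrichment was close to that of the list, 6.71 against 7.02 and 5.99 against 6.56, although the median summit held 23 reads against 14 and 47 against 22. Of the 66 regions, 12 lay within 1 kb of the start of another gene, and these were *Vamp2*, *Hes6*, *Ilkap*, *Vamp3*, *Mterf2*, *Msl1*, *Sphk2*, *Car11* and *Aloxe3*. The nearest coding start was that of the clock gene for 30 of 45 and 42 of 65 peaks.

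A list of 13 further clock genes comprised *Npas2*, *Rora*, *Rorb*, *Bhlhe40*, *Bhlhe41*, *Nfil3*, *Tef*, *Hlf*, *Csnk1d*, *Csnk1e*, *Ciart*, *Btrc* and *Timeless*. Of these, 12 of 13 had a promoter peak in both long lists, all but *Rorb*, a receptor known from neural cells. Over all protein-coding genes the share was 47.4% for control females and 58.5% for VEDS males. *Btrc*, which encodes a ubiquitin ligase subunit that acts on PER proteins, alone had a promoter peak in the control male list, against 1.56% of all genes. In the list of VEDS females 0 of 13 had one, against 1.49% of all genes. In lists this short, such counts are near the background. In the long lists the ranks could be compared. The best promoter peaks of the further clock genes had medians of 35.5% and 27.9% there. These were lower in rank than the 19.5% and 9.51% of the 10 genes above and than the 28.1% and 18.6% of all genes.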

How the data were processed

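Aortic nuclei from 4 libraries were profiled by single-cell ATAC-seq and treated in aggregate. The authors aligned reads to the mm10 build (GRCm38), removed duplicates by barcode, corrected Tn5 cut sites, called narrow peaks in each library with MACS2 and excluded blacklisted regions. The aligner and the peak threshold are not given in the sources used here, and the lowest −log10 q was 1.30 to 1.32. Each deposited peak has a fold enrichment (a ratio to the local background of its library), a −log10 p-value, a −log10 q-value and an integer score that is derived from the −log10 q-value by the authors' caller and was not used. The deposited start, end and summit offset gave positions. Values were compared only within a list.

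Reads at the summit were recovered as the whole number that gives the deposited fold (pseudocount 1) and −log10 p-value under a Poisson distribution, in 99.3% to 99.9% of peaks per list, and in 100.0% of 500 simulated peaks. A read here is a unit of the caller's pileup. Intervals are exact Poisson at 95% and cover counting error only. Peaks within 3 kb of any GENCODE vM21 TSS of a gene were called promoter peaks, and introns were numbered on the longest coding transcript. Distances run from the gene start in the sense of the gene, to the centre of a motif. Overlap was at least 1 bp. Bases were read from the RefSeq GRCm38 genome, and shares of all peaks are over those on assembled chromosomes, 21128 and 41365 in the long lists. The alignment scored a match 2, a mismatch -1, a gap opening -4 and a gap extension -1.

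All 10 genes were named, and further clock genes by name where they lacked a promoter peak in a long list or had one in a short list. Some items under this rule are not reported here. Peaks were described by position where they were promoter peaks, in both long lists or held a motif. The members, the lists of clock and marker genes and the motifs were chosen with earlier results of these data known. Alternatives were stricter −log10 q limits of 5 and 10, equal list size, 1 kb promoters, windows of 5 kb, coding transcripts only, a 50% overlap, other summit windows and motif letters, and leaving out each library. Software was Python 3.11.15, Biopython 1.88, pysam 0.24.0, scipy 1.17.1, pandas 2.3.3, numpy 2.4.6 and matplotlib 3.10.9.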

Additional observations from a re-analysis of the deposited data

How the results depend on the processing

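Of 72 recomputed values, 56 stayed within 1.5 times the reported count. The 56 include all counts of the VEDS female library and the motif counts of the control male library, where 0 stayed 0. With 0 clock gene peaks in VEDS females, no alternative could give another value there. With lists cut to equal size, clock genes with a promoter peak and clock gene peaks both fell to 0 in the control female and the VEDS male library. With a −log10 q of at least 5 or 10, the *Arntl* peak of the control male library was lost, which left 0 genes and 0 peaks there. At 10, 25 of 45 control female peaks and 25 of 43 shared regions were left. Counting only peaks whose nearest start is the clock gene gave 42 of 65 in the VEDS male library. Leaving out each library in turn gave 1 to 10 control and 0 to 10 VEDS clock genes with a promoter peak, with the low values when the control female or the VEDS male library was left out. With TGACG in place of the full CRE, peaks with an E-box, D-box or CRE numbered 22 in place of 14 for control females and 31 in place of 18 for VEDS males, and with windows of 5 kb the 14 became 9. The alternatives keep fewer peaks or looser letters by construction. The median peaks of the short lists held 7 and 6 reads. No paired analysis was made, as no result comes from a test, and in either sex a long list would be set against a short one.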
